A study of Mus musculus with 21 samples.

Results

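The regions described here are gaps between chromatin domains, that is, stretches of a mouse chromosome that follow the end of a domain and precede the start of the next. A gap was kept when it was 40 kb or longer, on chromosomes 1 to 19, in the domain list that the authors deposited for their combined Th2 libraries or in that for their combined embryonic stem (ES) cell libraries. The gaps were thus chosen by the measured positions of domain ends and starts in these lists, so their number and length are a description of the calls. The rule gave 1760 gaps among 3826 pairs of consecutive domains. Of these, 717 lay in the Th2 list, where 38.4% of 1867 consecutive pairs were apart by 40 kb or more, and 1043 lay in the ES list, where 53.2% of 1959 pairs were.

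Hi-C joins DNA ends that lie close together in the nucleus and counts the joined pairs by sequencing. Topological domains are stretches within which loci meet more often than with loci outside. Domains are thought to form as cohesin extrudes loops of chromatin until it is held at sites bound by CTCF. Where 2 domains abut, the list shows a sharp border. Where they do not, the interval is a stretch that the list assigns to no domain, for reasons that the lists do not give. In early Hi-C maps of mouse cells, intervals up to 400 kb were called topological boundaries and longer ones unorganised chromatin, and that limit is used below to sort the gaps by length.

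The study applied 3e Hi-C, in which a mix of restriction enzymes (CviQ I, CviA II and Bfa I) cuts the crosslinked chromatin, to Th2 cells (2 libraries) and to R1 ES cells (2 libraries). The Th2 cells were grown from naive CD4+ T cells sorted from lymph nodes of C57BL/6 mice and polarised in culture with IL-4, IL-2 and antibodies against IFNγ and IL-12. The R1 cells, a line of 129X1 x 129S1 origin, were cultured on feeder-coated dishes, and the labels do not say whether feeder cells were removed. No change to CTCF is labelled for either, since the CTCF knockdown and the CTCF-motif KO of the series were made in EL4 cells, which are not analysed here. Strain and culture differ with cell type, so effects of cell type, strain and culture cannot be told apart. Nothing in the labels says that the libraries of a cell type came from separate cultures, so the spread between them may be technical.

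The lists give a chromosome, a start and an end on a 40 kb grid of the mm9 build and no read numbers, so the depth behind each edge is unknown. They hold no expression values against which the cell type labels could be checked. In the 6 lists (combined and single library) no domains overlapped, and no distance lay between 0 and 40 kb. The length threshold therefore separated abutting pairs (1150 in the Th2 list and 916 in the ES list) from gaps of exactly 40 kb or more, of which 210 in Th2 and 358 in ES were of 40 kb, a single bin of the grid. No sequence is shown, because a genome of the lists' build was not used here.

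The combined Th2 list had fewer gaps than the combined ES list, with a longer mean length (560 kb against 274 kb). The gaps of the combined Th2 list summed to 402 Mb, 17.2% of the span between the first and the last domain of each chromosome. The gaps of the combined ES list summed to 286 Mb, 12.3% of the span. The median gap was 120 kb in both combined lists, whereas the 90th percentile was 1840 kb in Th2 and 600 kb in ES. The longest gap measured 11.4 Mb in Th2 and 7.04 Mb in ES. The 10 longest gaps held 18% of all gap length in Th2 and 12.8% in ES.

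The lists of the single libraries allow a comparison over replicates. Gaps took 18.5% and 20.7% of the span in the Th2 libraries 1 and 2, against 13.6% and 13.3% in the ES libraries 1 and 2. Each combined list, at 17.2% in Th2 and 12.3% in ES, had a smaller share than either of its own libraries. Whether read depth, which is unknown, differed between the cell types was not tested. Both Th2 libraries lay above both ES libraries, with means of 19.6% ± 1.55 and 13.5% ± 0.19 (SD, n = 2 each), a difference of 6.16 percentage points. The number of gaps was 572 and 820 in the Th2 libraries, which is 30.3% and 50.6% of their consecutive pairs. It was 996 and 1095 in the ES libraries, 56.7% and 62.3% of theirs. The means were 696 ± 175 and 1046 ± 70 gaps (SD, n = 2 each). The difference of -349.5 gaps was -225.5 without Th2 library 1, which had the fewest gaps. The median gap was 240 and 160 kb in the Th2 libraries, against 120 kb in each ES library. That difference of 80 kb was 40 kb without Th2 library 1 and 120 kb without Th2 library 2. With gaps of 1 Mb or more left out, the median was 160 and 120 kb in the Th2 libraries, against 120 kb in each ES library, so that the difference was 20 kb and Th2 library 2 equalled the ES libraries. With gaps above 400 kb left out, the median was 120 kb in each Th2 library, against 80 kb in each ES library. Over all gap lengths, the libraries of the cell types did not overlap in these 3 comparisons. With 2 libraries against 2, the exact two-sided permutation test cannot go below p = 0.33, and that was its value in each (adjusted p = 0.33 over 12 comparisons of gaps made here). That test therefore cannot reach a threshold of 0.05 with these 4 libraries, whatever the size of a difference.

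The larger summed length in Th2 lay in gaps of 1 Mb or more. There were 118 and 127 such gaps in the Th2 libraries, against 75 and 69 in the ES libraries. They summed to 326 and 344 Mb in the Th2 libraries, against 147 and 127 Mb in the ES libraries, a ratio of the means of 2.44. Below 1 Mb the order was the other way round. Gaps of 80 to 400 kb numbered 308 and 400 in the Th2 libraries, against 532 and 575 in the ES libraries. Single-bin gaps of 40 kb numbered 73 and 197 in the Th2 libraries, against 285 and 345 in the ES libraries. Gaps of 440 to 960 kb numbered 73 and 96 in the Th2 libraries, against 104 and 106 in the ES libraries. In each of these classes the cell types did not overlap, again at p = 0.33 in the exact permutation test. The spread between the Th2 libraries was widest for the 40 kb gaps. With gaps of 1 Mb or more left out, the difference in the share of the span, Th2 minus ES, was -2.33 percentage points. In the combined lists, gaps of 1 Mb or more were 15.5% of the Th2 gaps and held 74.3% of their length, and they were 5.75% of the ES gaps and held 43.9% of theirs.

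**Figure D1:**
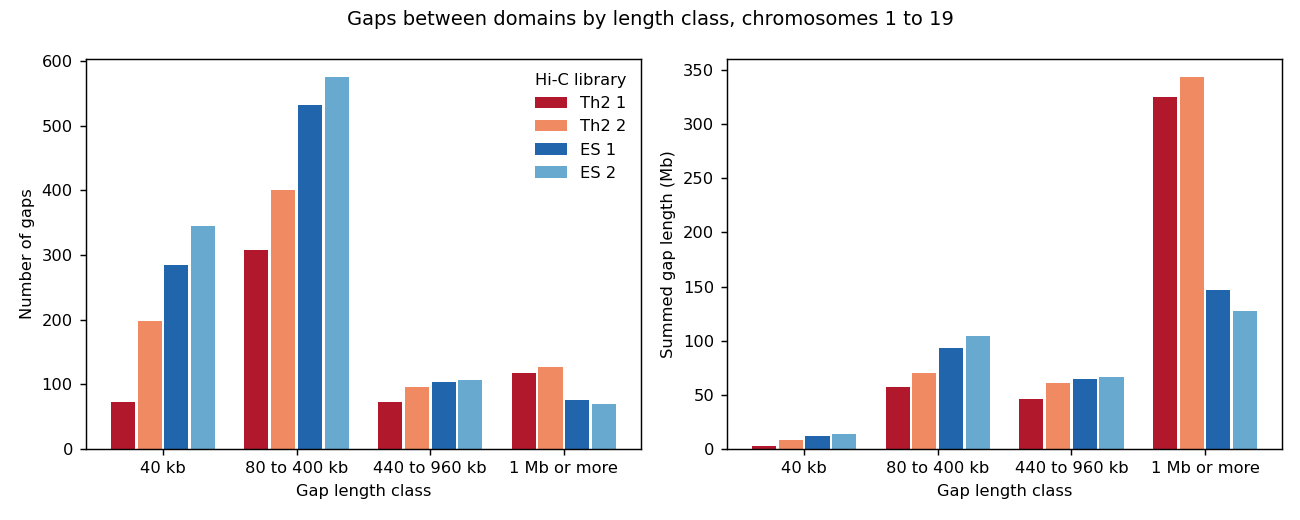
Number of gaps (left) and their summed length in Mb (right) in each Hi-C library, by gap length class on chromosomes 1 to 19; each bar is 1 library. Below 1 Mb both Th2 libraries (red and orange) have fewer gaps than both ES libraries (dark and light blue), whereas gaps of 1 Mb or more number 118 and 127 in Th2, against 75 and 69 in ES.

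Gaps were unevenly spread over chromosomes. In the combined Th2 list they took from 9.53% of the span on chromosome 17 to 28.7% on chromosome 14. In the combined ES list they took from 6.64% on chromosome 11 to 22.8% on chromosome 7. The share was higher in both Th2 libraries than in both ES libraries on 13 of 19 chromosomes (68.4%), and on no chromosome lower in both. The number of gaps was lower in both Th2 libraries than in both ES libraries on 18 of 19 chromosomes (94.7%). Chromosome 14 had the widest difference between the combined lists, 28.7% in Th2 against 13.8% in ES. Its libraries gave 29.3% and 31.8% in Th2, against 14.8% and 9.90% in ES. On chromosome 7 the share was high in both cell types, with 28.5% and 27.5% in the Th2 libraries, against 22.5% and 24.4% in the ES libraries. Chromosome 17 was lower in Th2 in the combined lists (9.53% against 14.7%), but its libraries overlapped, with 16.9% and 11.8% in Th2, against 14.1% and 16.3% in ES. Chromosome 9 was also lower in Th2 in the combined lists (10.2% against 12.1%), although both its Th2 libraries, at 13.2% and 15.8%, lay above its ES libraries, at 11.9% and 10.5%.

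**Figure D2:**
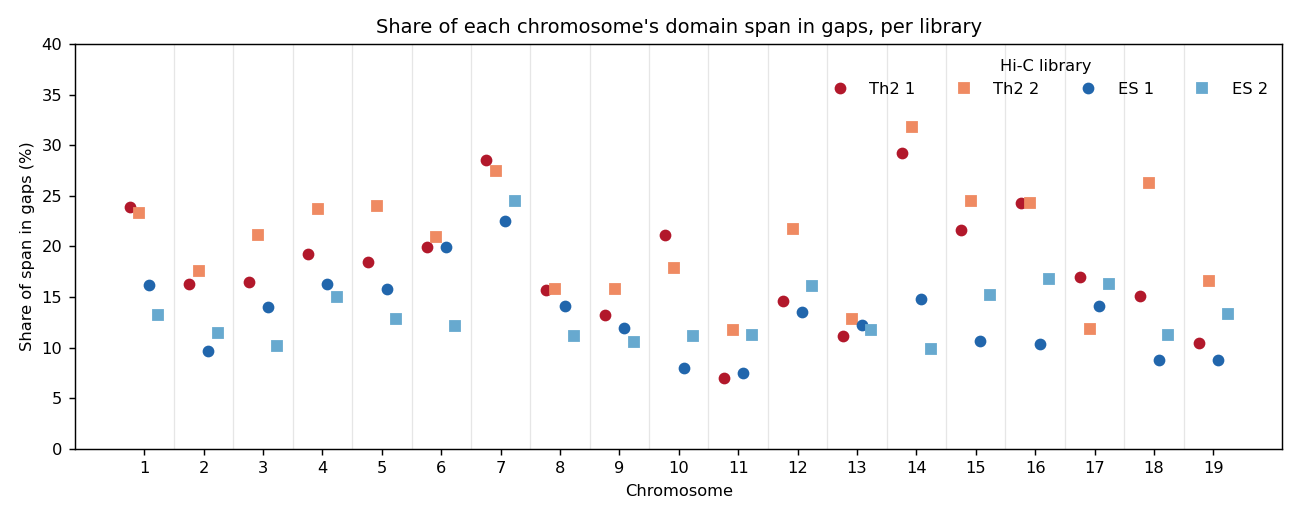
Share of the span from first to last domain that lies in gaps, in percent, for chromosomes 1 to 19; each point is 1 library. Both Th2 libraries (red, orange) lie above both ES libraries (blue) on 13 of 19 chromosomes, chromosome 14 being the widest apart in the combined lists.

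Mouse chromosomes have their centromere at the start of the coordinates. With each span cut into 3 parts of equal length, gaps took 20.0% and 22.9% of the part on the centromere side in the Th2 libraries, against 14.7% and 15.1% in the ES libraries. In the middle part they took 20.7% and 22.6% in the Th2 libraries, against 15.7% and 14.5% in the ES libraries. In the far part they took 14.9% and 16.7% in the Th2 libraries, against 10.3% and 10.4% in the ES libraries. The far part had the lowest share in each of the 4 libraries.

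Domains next to a gap had a longer median than domains with abutting neighbours on both sides, by 200 kb in Th2 and 40 kb in ES. In the combined Th2 list the median was 840 kb for 1128 domains that flank a gap and 640 kb for 758 that flank none. In the combined ES list it was 840 kb for 1516 that flank a gap and 800 kb for 462 that flank none. Domains beside a gap of 1 Mb or more had medians of 1240 kb in Th2 (204 domains) and 1160 kb in ES (114 domains). The 4 libraries had the same order, with 760 and 880 kb beside gaps and 600 and 720 kb elsewhere in the Th2 libraries, against 920 kb beside gaps and 800 and 840 kb elsewhere in the ES libraries. Domains with a gap on both sides made up 16.2% of the domains in Th2 and 28.8% in ES. These lengths come from the lists that defined the gaps and are given with no test.

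Gap positions were partly common to the cell types. The combined lists shared 136 Mb of gap, which is 34.0% of the Th2 gap length and 47.7% of the ES gap length. A 40 kb bin taken anywhere in the span lay in an ES gap in 12.3% of cases and in a Th2 gap in 17.2%. At least 1 base in an ES gap was found for 314 of 717 Th2 gaps (43.8%), and at least 1 base in a Th2 gap for 338 of 1043 ES gaps (32.4%). With 50% of each gap required to lie in the other, 167 pairs were left. The same start and end were found for 40 gaps, 5.58% of the Th2 gaps and 3.84% of the ES gaps, of which 19 were of 40 kb and the longest was of 3.40 Mb.

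Single-bin gaps can be read directly against the share of bins. Of the 210 Th2 gaps of 40 kb, 22.9% lay in an ES gap, against 12.3% of all bins. Of the 358 ES gaps of 40 kb, 13.1% lay in a Th2 gap, against 17.2% of all bins. For long gaps the shared length depended on which list was taken as the base. Of the length of ES gaps of 1 Mb or more, 64.8% was also gap in Th2. Of the length of Th2 gaps of 1 Mb or more, 33.6% was also gap in ES, although 81.1% of these gaps met an ES gap somewhere.

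Where the other list had no gap, the gaps were sorted by whether a domain edge lay there. A domain edge was counted where a domain of the other list started within the gap or at its border. A gap covered by 1 domain that starts at the gap's left border is thus counted as a domain edge. Of the 717 Th2 gaps, 142 were ES gap over their whole length, 172 over part of it, 155 held or touched an ES domain edge without a gap, and 248 lay inside 1 ES domain. Of the 1043 ES gaps, 157 were Th2 gap over their whole length, 181 over part of it, 307 held or touched a Th2 domain edge without a gap, and 397 lay inside 1 Th2 domain. A further ES gap lay outside the Th2 domains. For the 40 kb gaps a domain edge without a gap was common, in 33.3% of those of Th2 and 43.0% of those of ES. At gaps of 1 Mb or more it was found for 9.91% of those of Th2 and 1.67% of those of ES.

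**Figure D3:**
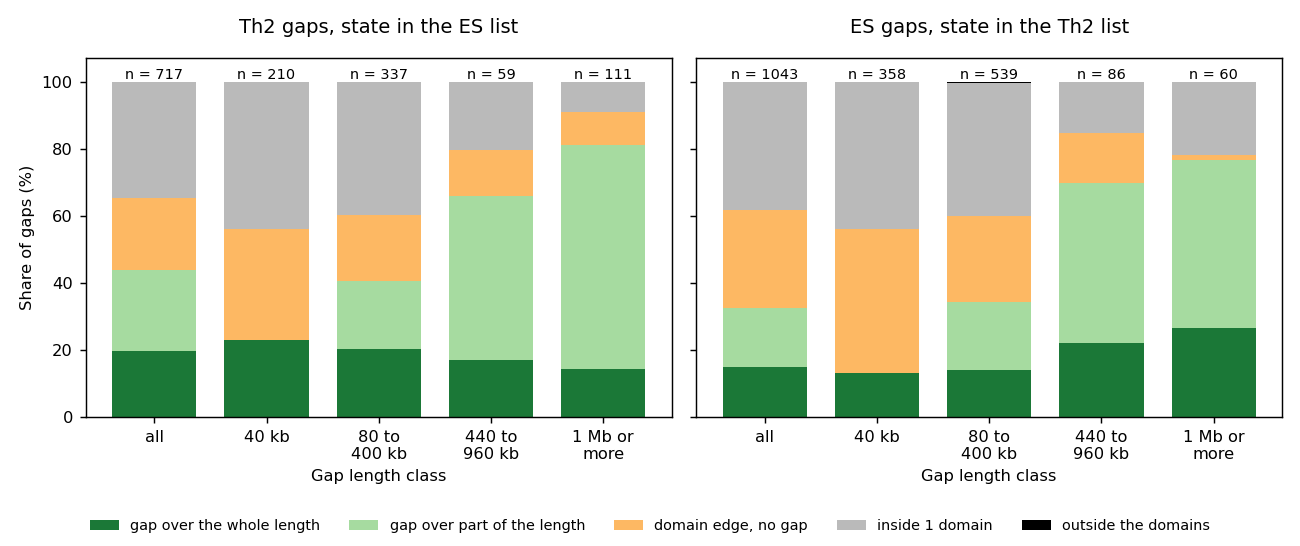
Share of gaps (percent) by what the combined list of the other cell type holds at the same place, for Th2 gaps (left) and ES gaps (right), for all gaps and by length class, with the number of gaps above each bar. The green parts are gaps that meet a gap of the other list, 43.8% of the Th2 gaps and 32.4% of the ES gaps. A longer gap has more bins with which to meet one. The part that is gap over the whole length is smaller for Th2 gaps of 1 Mb or more (14.4%) than for those of 40 kb (22.9%). For ES gaps it is larger at 1 Mb or more (26.7%) than at 40 kb (13.1%).

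Gap edges had an edge of the other cell type nearby in a smaller share than abutting edges and in a larger share than all positions of the 40 kb grid. An edge of the other cell type lay within 40 kb for 51.3% of the 1434 Th2 gap edges, against 67.4% of the 1150 edges where Th2 domains abut and 14.1% of all grid positions. The values for ES were 46.7% of 2086 gap edges, against 69.9% of 916 abutting edges and 12.5% of all grid positions. Of the abutting Th2 edges 24.8% lay in or at the border of an ES gap, against 14.1% of all grid positions. Of the abutting ES edges 16.3% lay in or at the border of a Th2 gap, below the 18.5% of all grid positions.

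More of the long Th2 gaps held whole ES domains than long ES gaps held whole Th2 domains. Of the 111 Th2 gaps of 1 Mb or more, 37 enclosed at least 1 domain of the combined ES list, 47 domains in all, with a median of 1840 kb. The same count was 34 gaps with 41 domains in ES library 1 and 37 gaps with 48 domains in ES library 2. Of the 60 ES gaps of 1 Mb or more, 1 enclosed a domain of the combined Th2 list. In Th2 library 1 no such gap did and in Th2 library 2 a single one did. The 111 Th2 gaps summed to 298 Mb and the 60 ES gaps to 126 Mb, and the longest measured 11.4 and 7.04 Mb. A longer gap has more room for a whole domain, and other stretches of like length were not counted.

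The combined lists were compared with the lists of the single libraries, which presumably rest on the same reads, so that this is a description of how stable a gap is and no independent support. Gaps of 1 Mb or more of the combined Th2 list were gap over 90.7% and 93.3% of their length in the Th2 libraries 1 and 2, and over 38.2% and 32.1% in the ES libraries 1 and 2. Those of the combined ES list were gap over 73.7% and 65.7% of their length in the Th2 libraries, and over 82.0% and 75.8% in the ES libraries. Gaps of 40 kb were less stable in Th2. Of the 210 in the combined Th2 list, 44 were gap in library 1 and 127 in library 2, and 68 were in neither. Of the 358 in the combined ES list, 240 were gap in library 1 and 261 in library 2, and 35 were in neither. At least 50% of the length was gap in both libraries of the own cell type for 389 Th2 gaps (54.3%) and for 647 ES gaps (62.0%).

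**Figure D4:**
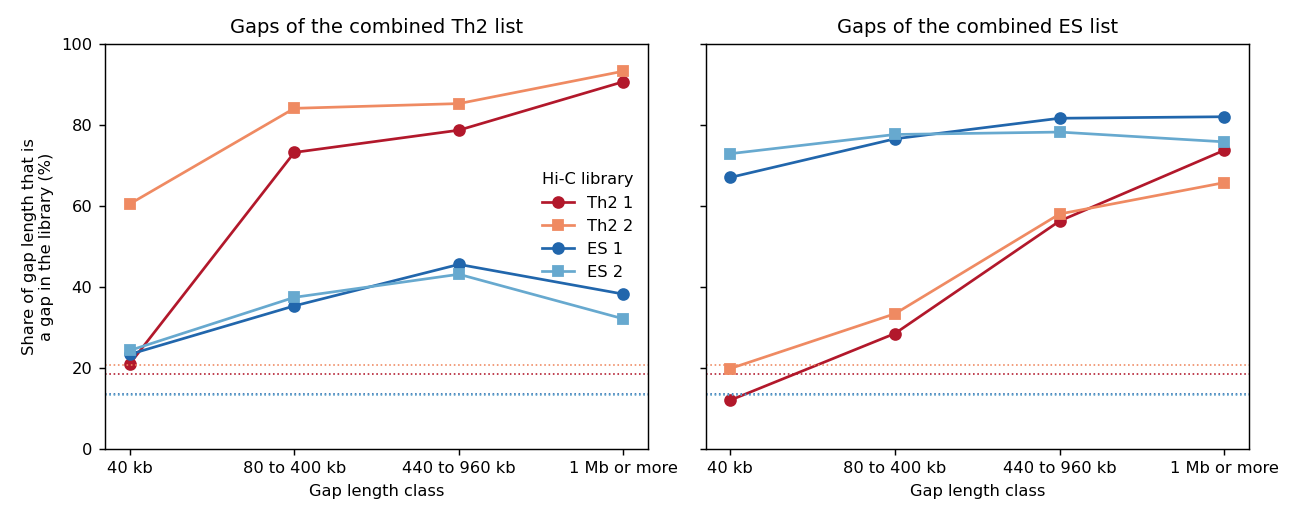
Share of the length of the combined Th2 gaps (left) and combined ES gaps (right) that is also gap in each library, in percent, by length class; points are libraries and dotted lines give each library's share of its whole span in gaps, 18.5% and 20.7% in Th2 and 13.6% and 13.3% in ES. Long Th2 gaps are found over 90.7% and 93.3% of their length in the Th2 libraries, and at 40 kb Th2 library 1, at 21.0%, lies near its dotted line.

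Libraries of a cell type had more gap in common than libraries of different cell types. The Jaccard index, the gap length common to a pair of libraries divided by the gap length of either, was 0.59 between the Th2 libraries and 0.47 between the ES libraries. It ran from 0.23 to 0.29 in the 4 pairs of a Th2 with an ES library. The means were 0.53 within and 0.26 between cell types, a difference of 0.28 with p = 0.33 in the exact two-sided permutation test, the smallest it can give. A total of 760 Mb was gap in at least 1 library. Of this, 95.7 Mb was gap in all 4, 176 Mb in both Th2 and no ES library, and 73.3 Mb in both ES and no Th2 library. Another 44.96 Mb was gap in just 1 library of each cell type, and 269 Mb in a single library.

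Some long gaps were the same to within 2 bins in every list, and 3 of the 5 longest stretches of gap common to the combined lists were on chromosome 7. This chromosome held 26.3 Mb of the shared gap, 19.3% of the total. The longest ES gap, chr7:39360001-46400000, lay within a Th2 gap of 7.08 Mb, chr7:39320001-46400000. The gap here measured 7.12 and 7.08 Mb in the Th2 libraries, against 7.04 and 7.12 Mb in the ES libraries. The interval chr7:20680001-24080000 was a gap of 3.40 Mb in both combined lists and in the 4 libraries. At chr7:7280001-10640000 the gap measured 3.36 and 3.32 Mb in the Th2 libraries, against 3.36 Mb in each ES library. The edges of these 3 gaps thus differed between the libraries by at most 2 bins.

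The other 2 of the longest shared stretches varied between ES libraries. The ES gap chr5:54600001-58080000 was gap over 96.6% and 94.3% of its length in the Th2 libraries, against 39.1% and 21.8% in the ES libraries. The ES gap chr15:17160001-20600000 was gap over its whole length in both Th2 libraries, against 0% and 96.5% in the ES libraries. In ES library 1 this interval belonged to a domain of 8.24 Mb. Both ES gaps were therefore more complete in the Th2 libraries than in at least 1 of the libraries of their own cell type.

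The longest Th2 gap, chr15:12960001-24400000, surrounds this last stretch. It measured 11.4 and 11.5 Mb in the Th2 libraries, and 11.2% and 36.4% of it was gap in the ES libraries, where it enclosed 3 and 5 whole domains. The next 2 lay on chromosome 14. The gap chr14:89440001-99440000 of 10.0 Mb was gap over 100% and 80.4% of its length in the Th2 libraries, against 23.2% and 1.2% in the ES libraries. In the ES libraries it held domains of up to 4.84 and 4.88 Mb. The gap chr14:106800001-115200000 of 8.40 Mb was gap over 98.6% and 100% of its length in the Th2 libraries, against 7.14% and 6.67% in the ES libraries, each of which had 3 whole domains there. The fifth longest, chr1:100240001-106840000 of 6.60 Mb, was gap throughout in both Th2 libraries, against 46.7% and 23.0% in the ES libraries. Of the 5 longest Th2 gaps, 4 thus contained whole ES domains, and the exception was the one on chromosome 7.

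Many gaps met no gap of the other combined list. Of all 40 kb bins, 87.7% lay in no ES gap and 82.8% in no Th2 gap. In length, those shares are a like base only for gaps of 40 kb, since a longer gap has more bins with which to meet one. Unlike a bin taken anywhere, a gap of 40 kb also lies between domain edges. At 40 kb, 22.9% of the Th2 gaps met an ES gap, against 12.3% of all bins. For ES gaps of 40 kb the share that met a Th2 gap was 13.1%, against 17.2% of all bins. No base in an ES gap was found for 403 Th2 gaps (56.2%, 88.0 Mb, median 80 kb), and 170 of these were gap over 50% or more in both Th2 libraries. No base in a Th2 gap was found for 705 ES gaps (67.6%, 109 Mb, median 80 kb), and 401 of these were gap over 50% or more in both ES libraries. Without any gap base in either library of the other cell type as well, 124 Th2 gaps and 316 ES gaps were left. Of these, 9 in Th2 and 4 in ES were of 1 Mb or more. The share of all bins that meet this stricter condition was not counted, so these numbers have no base and are given as description only.

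The longest Th2 gaps with no base in a combined ES gap, among those that were gap over 50% or more in both Th2 libraries, were led by chr1:147000001-151640000, of 4.64 Mb. It was gap throughout in both Th2 libraries and lay inside a single domain of 5.28 and 5.40 Mb in the ES libraries. The Th2 gap chr6:100840001-103200000 of 2.36 Mb was gap throughout in both Th2 libraries and had no gap base in the ES libraries. The Th2 gap chr1:67200001-69200000 of 2.00 Mb coincided with a whole domain of the combined ES list, from the same start to the same end. The Th2 gap chr2:53120001-55880000 of 2.76 Mb was gap throughout in both Th2 libraries, against 1.45% and 0% in the ES libraries. The fifth, chr16:53320001-55440000 of 2.12 Mb, had 98.1% and 100% in the Th2 libraries, against 0% and 100% in the ES libraries. ES library 2 thus had a gap here that was missing from the combined ES list.

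Among the longest ES gaps chosen the same way, with no base in a combined Th2 gap, was chr6:108880001-110920000 of 2.04 Mb. It lay inside a domain of 3.76 and 4.08 Mb in the Th2 libraries, against a gap over 98.0% and 100% of its length in the ES libraries. The ES gap chr8:30640001-32280000 of 1.64 Mb lay inside a domain of 5.6 and 5.72 Mb in the Th2 libraries, against a gap over 61.0% and 100% in the ES libraries. The ES gap chr6:131440001-133800000 of 2.36 Mb had 0% and 5.08% in the Th2 libraries, against 78.0% and 98.3% in the ES libraries. The Th2 libraries did not go together at the other 2. The ES gap chr17:59040001-62400000 of 3.36 Mb had 98.8% and 0% in the Th2 libraries, against 100% in each ES library. The ES gap chr4:91440001-93720000 of 2.28 Mb had 61.4% and 0% in the Th2 libraries, against 100% and 98.2% in the ES libraries. At these places the combined Th2 list and Th2 library 2 had a single domain over the whole gap, of 5.96 and 6.32 Mb in Th2 library 2, whereas Th2 library 1 had a gap.

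**Figure D5:**
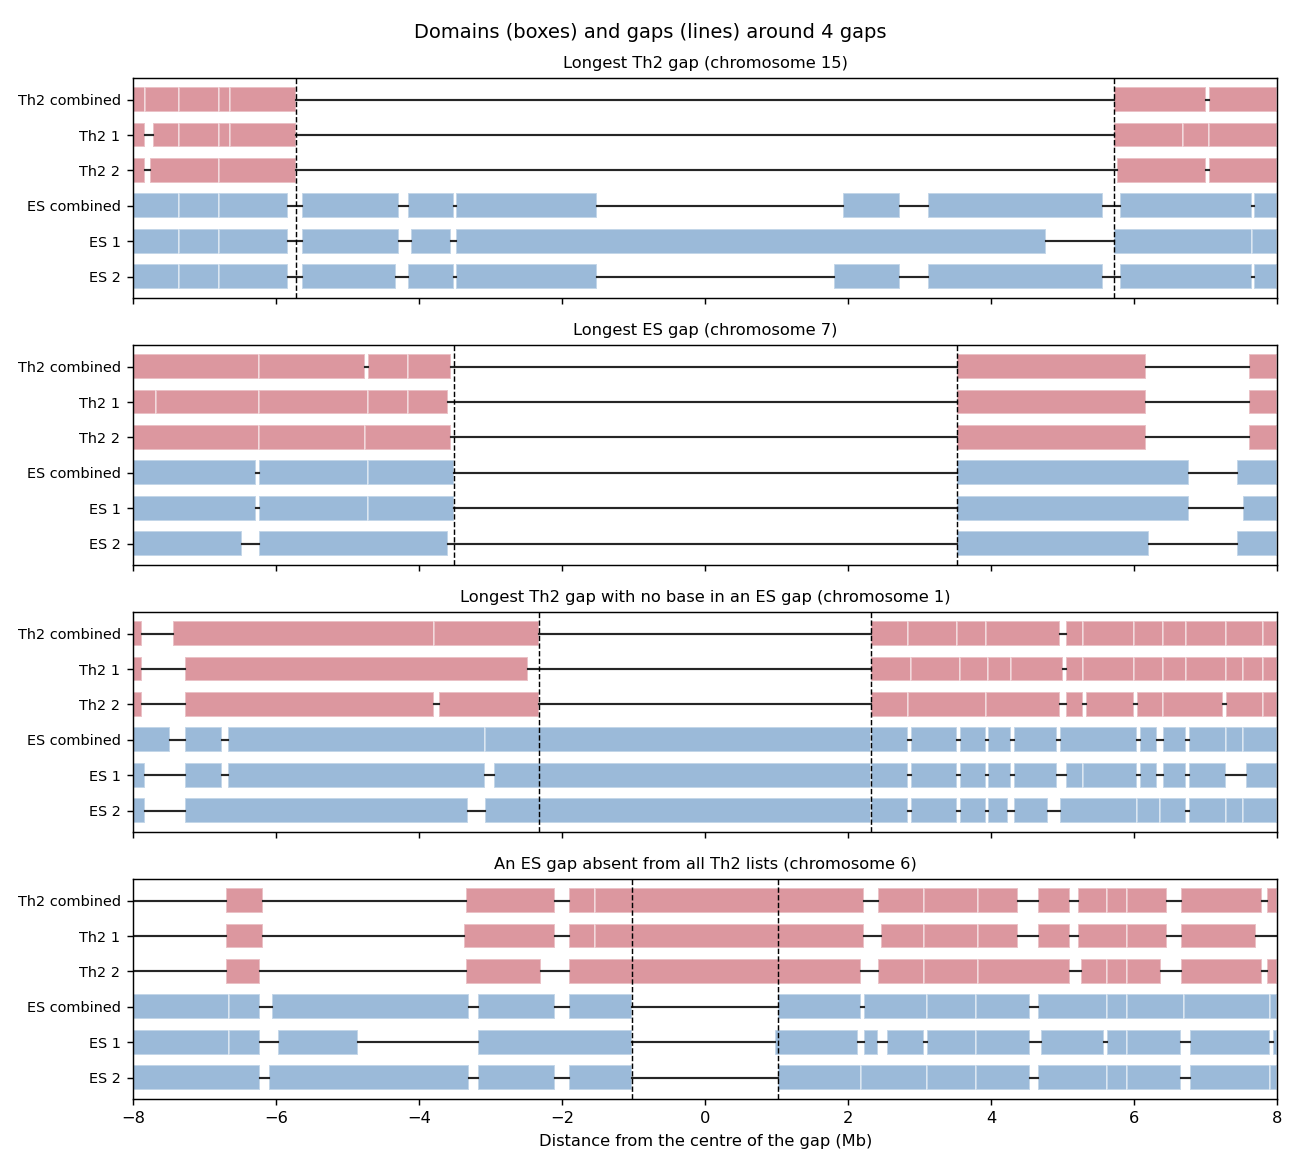
Domains (boxes) and gaps (black lines) in the combined and single-library lists of Th2 (red) and ES cells (blue) around 4 gaps, by distance in Mb from the centre of the gap, whose edges are dashed. From the top, the Th2 gap of 11.4 Mb on chromosome 15 held ES domains, the ES gap of 7.04 Mb on chromosome 7 was present in every list, and the Th2 gap of 4.64 Mb on chromosome 1 and the ES gap of 2.04 Mb on chromosome 6 each lay within a domain of the other cell type.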

How the data were processed

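The submitters' processing notes name Bowtie2 and mm9. The domain caller, its settings and how libraries were combined are not stated in these sources. The deposited files list domain starts and ends in bases, which were used as they stand. Coordinates are written 1-based. Gaps, spans and overlaps were computed in Python 3.11.15 with numpy 2.4.6 and pandas 2.3.3 and plotted with matplotlib 3.10.9; the functions were tested on simulated lists. Gap edges fall on the 40 kb grid, so overlap was counted in bins. The span runs from the first domain's start to the last domain's end on each of chromosomes 1 to 19. Libraries 1 and 2 follow the sample titles. Named were the 5 longest gaps per combined list, the 5 longest stretches in both, and the 5 longest per list without a base in the other that were gap over at least 50% of their length in both own libraries; gaps of chromosome 18 were counted but not named. The gaps and measures were chosen with earlier results of these data known. The 17 other samples were not used.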

Additional observations from a re-analysis of the deposited data

How the results depend on the processing

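The share of the span in gaps was higher in Th2 under each alternative but 2. The difference became -2.33 percentage points with gaps of 1 Mb or more left out and -1.81 with gaps above 400 kb left out. With a library left out it ran from 5.07 to 7.26 points. The difference in gap number (-473.5 to -225.5), in median gap (40 to 120 kb) and in Jaccard index (0.20 to 0.35) kept its direction with a library left out. Without Th2 library 1 the difference in gap number was -225.5 and that in the median 40 kb. A minimum gap of 80 or 120 kb gave -169.5 and -113 gaps. With gaps of 1 Mb or more left out the difference in the median was 20 kb (p = 1 in the exact permutation test), and the libraries of the cell types were no longer apart. With gaps above 400 kb left out the difference in the median was 40 kb, and the libraries of the cell types were apart. With the replicate number as a replicate block, the differences in share, number and median were 6.16 points, -349.5 gaps and 80 kb, at p = 0.5, the smallest value 2 pairs allow in an exact test. Nothing in the labels says that equal numbers mark a shared culture. Overlapping gaps fell to 167 when 50% of both gaps had to be shared and to 40 with the same start and end. Gaps above 400 kb were also left out of both lists. The share of gap length found in the other list was then 23.7% for Th2 and 14.4% for ES gaps. With gaps of 1 Mb or more left out of both lists it was 31.8% and 20.4%. Less of the span is then gap, so the 12.3% and 17.2% of all bins are no base for these shares. Against all gaps of the other list, gaps of 80 to 400 kb shared 33.4% (Th2) and 27.6% (ES) of their length. With a single library in place of the combined list, the share over all gaps was 30.5% to 34.9% (Th2) and 43.4% to 48.4% (ES). In an alternative added after the data were seen, both lists kept only gaps present over 50% in both own libraries. It was then 26.7% for Th2 and 46.8% for ES gaps. The gaps kept took 7.81% of the ES span and 13.7% of the Th2 span, so the 12.3% and 17.2% are again no base. For domains flanked on both sides the median exceeded that of unflanked domains by 280 kb (Th2) and 80 kb (ES), against 200 and 40 kb for all flanking domains. Read depth is unknown, and gaps of a single bin rest on the grid's resolution.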

Other observations

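Chromosome X lies outside the rule and was not part of the comparisons above. Gaps took 37.3% and 40.2% of its span in the Th2 libraries, against 31.2% and 28.6% in the ES libraries, so that both Th2 libraries lay above both ES libraries. The number of gaps was 34 and 39 in the Th2 libraries, against 43 and 42 in the ES libraries. The longest gap on this chromosome measured 9.24 and 9.12 Mb in the Th2 libraries, against 9.48 and 9.44 Mb in the ES libraries. The sex of the Th2 donors and of the ES line is not given in the labels. How many X chromosomes the cells carried was not tested.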
